A study of Mus musculus with 9 samples.

Results

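The chemokine receptors Ccr2, Ccr4, Ccr7, Ccr9, Cxcr3, Cxcr4, Cxcr5, Cxcr6 and Cx3cr1 were followed in splenic CD8+ T cells with and without the gene for RIG-I. The 9 receptors were chosen by gene symbol as those best known on lymphocytes, and 8 of them had values among the 18188 genes listed for each library; Cxcr6 was not analysed here. Of the 8, 7 passed the filter on low values and entered the test across genes, while Ccr9 was below it. The groups were 5 wild-type libraries (WT) and 4 libraries of the genotype KO_Rig1 (Rig1 KO) from mouse spleens, with no treatment or time point named. RIG-I, encoded by Ddx58, is a cytosolic sensor of viral RNA, and the series asks how its loss bears on CD8+ T cells that act against tumours. Poly(A) RNA was sequenced, and between 15496262 and 17893558 reads per library were recovered from the values, as lower bounds. Strain, age, sex, the way the cells were isolated, the kind of deletion (in every cell or in T cells alone) and any pooling of animals are not given in the sources used here. Nothing in the labels ties a replicate number to an animal, so the p-values measure the spread between these samples.

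Chemokine receptors are G protein-coupled receptors that steer cells along gradients of small secreted proteins, the chemokines. They signal through the inhibitory G protein class to PI3K-gamma, Rac and Rap1, which move the cytoskeleton and open integrins. In T cells the set of receptors on the surface changes with the state of the cell: naive and central memory cells carry Ccr7, whose ligands mark lymph nodes and the T cell zone of the spleen, whereas effector and memory cells take on receptors for inflamed tissue, such as Cxcr3, Ccr2 and Cx3cr1. Several of these receptors are also made by other blood cells, among them monocytes (Ccr2, Cx3cr1), natural killer (NK) cells (Cx3cr1, Cxcr3) and B cells (Cxcr5, Cxcr4, Ccr7).

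The promoters of the 4 receptors with the largest rises, and of Cxcr4 as one that fell, are shown as 300 bases from RefSeq on GRCm38.p6, an older build than the mm39 named in the submitters' processing notes. Each runs 5′ to 3′ on the gene's own strand, from 250 bases before the annotated start to 50 after it, and 6 of the 8 receptors with values were matched by symbol in the promoter table. The windows are chr9:124101933-124102232 on the plus strand for Ccr2, chrX:101734098-101734397 on the minus strand for Cxcr3, chr9:120068247-120068546 on the minus strand for Cx3cr1, chr9:114496495-114496794 on the minus strand for Ccr4 and chr1:128592250-128592549 on the minus strand for Cxcr4. Capitals mark matches to any of 8 motifs searched on both strands.
Ccr2: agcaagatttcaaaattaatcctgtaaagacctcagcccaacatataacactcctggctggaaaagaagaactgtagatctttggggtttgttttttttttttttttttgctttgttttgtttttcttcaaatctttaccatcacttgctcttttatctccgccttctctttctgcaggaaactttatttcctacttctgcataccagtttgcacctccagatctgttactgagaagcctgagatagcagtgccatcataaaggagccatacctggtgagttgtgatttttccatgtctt
Cxcr3: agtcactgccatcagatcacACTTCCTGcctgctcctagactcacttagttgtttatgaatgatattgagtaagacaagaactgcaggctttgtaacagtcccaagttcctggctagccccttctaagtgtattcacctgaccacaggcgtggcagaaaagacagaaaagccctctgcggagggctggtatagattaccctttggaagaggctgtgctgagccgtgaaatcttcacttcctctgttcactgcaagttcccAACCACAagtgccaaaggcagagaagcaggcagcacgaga
Cx3cr1: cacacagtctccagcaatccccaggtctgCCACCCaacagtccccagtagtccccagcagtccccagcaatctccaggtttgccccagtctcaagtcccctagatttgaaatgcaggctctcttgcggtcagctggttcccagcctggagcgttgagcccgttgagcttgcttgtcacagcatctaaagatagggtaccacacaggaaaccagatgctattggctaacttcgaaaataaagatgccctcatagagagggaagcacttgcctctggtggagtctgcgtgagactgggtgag
Ccr4: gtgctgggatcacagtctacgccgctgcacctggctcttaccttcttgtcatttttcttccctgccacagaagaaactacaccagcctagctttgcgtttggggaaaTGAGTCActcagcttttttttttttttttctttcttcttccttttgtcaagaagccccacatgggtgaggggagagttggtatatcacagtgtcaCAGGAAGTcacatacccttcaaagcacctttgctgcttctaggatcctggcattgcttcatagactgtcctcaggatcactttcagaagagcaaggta
Cxcr4: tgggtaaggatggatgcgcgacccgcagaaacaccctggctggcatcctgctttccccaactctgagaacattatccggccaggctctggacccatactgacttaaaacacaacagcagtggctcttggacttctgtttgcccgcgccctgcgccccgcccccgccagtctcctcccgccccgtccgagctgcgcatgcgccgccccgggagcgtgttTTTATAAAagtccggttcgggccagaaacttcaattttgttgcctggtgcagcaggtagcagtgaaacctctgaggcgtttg
In Ccr4 the capitals are an AP-1 motif (TGANTCA, in 7.81% of the 32851 RefSeq promoters of this length) starting at -143 and an ETS motif (CAGGAAGT, 3.33%) at -48. Cxcr3 holds an ETS motif at -230 on the opposite strand and a RUNX motif (TGTGGTT, 5.27%) at 10, also on the opposite strand. Cxcr4 holds 2 overlapping matches to the TATA motif (TATAAA, 13.6%), at -32 and -30. Ccr2 holds no match. The KLF motif (CCACCC, 31.5%) was found in Cx3cr1 at -221 and Ccr9 at -74. The T-box motif (AGGTGTGA, 1.28%), the NF-kB consensus (0.411%) and the FOXO motif (GTAAACA, 3.65%) were in none of the 6 windows.

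Ddx58 itself was at 63.9, 67.4, 67.1, 63.8 and 63.2 TPM (transcripts per 1000000, scaled by gene length) in WT 1 to 5 and at 32.8, 30.6, 35.2 and 34.5 in Rig1 KO 1 to 4. Every KO library was below every WT library, with a log2 fold change of -0.95 (SE 0.0550, adjusted p = 4.91e-07), and the transcript was not at 0 in any of them. The sources used here do not give the deleted part of the gene. All libraries were rich in T cell transcripts: the 8 T cell markers summed to 3279 to 3823 TPM in WT and 4652 to 5148 in Rig1 KO, and Cd8a was at 1731 ± 110.0 (SD, n = 5) in WT and 2528 ± 175 (SD, n = 4) in Rig1 KO. Transcripts listed as markers of other cells were present and differed between the groups. The B cell markers summed to 348, 486, 169, 524 and 1189 TPM in WT 1 to 5 and 96.8, 95, 203 and 96.2 in Rig1 KO 1 to 4, and WT 5 also had the highest sums of neutrophil (577) and CD4 T cell (66.0) markers. The NK cell markers summed to 68.7 to 253 TPM in WT and 389 to 515 in Rig1 KO, and the basophil and mast cell markers to 15.1 to 58.7 and 222 to 424. Such sums can rest largely on 1 gene. Gzma gave 255 of the 515 TPM of NK cell markers in Rig1 KO 1, and Prss34 gave 292 of the 424 TPM of basophil and mast cell markers in Rig1 KO 2. Of the markers tested, 7 of 8 for T cells rose, 2 of 7 for neutrophils fell, 1 of 6 for dendritic cells rose (Itgax) and 1 of 2 for unconventional T cells rose, with no other call in these 4 lists. Over all genes tested 33.5% rose and 12.2% fell. No marker of any list was at 0 in all 9 libraries.

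Of the 7 receptors tested, 5 rose and 2 fell in Rig1 KO, and for all 7 the libraries of the groups did not overlap. The test was limma on log2(TPM + 1) with Benjamini-Hochberg adjustment at 0.05 over the 10540 genes that reached a TPM of 1 in at least 4 libraries. In the same test 33.5% of all genes were higher and 12.2% lower in Rig1 KO, and 28.0% were higher and 10.1% lower with no overlap between the groups. The median log2 fold change was 1.51 over the 7 receptors and 0.13 over all genes tested. Scaling the libraries by median ratios brought that median to 0.01 and left 5 receptors higher and 2 lower. The exact permutation p quoted for single receptors is two-sided, over 126 ways to divide the libraries, and cannot go below 0.00794. In bulk RNA, fewer cells of a type and less RNA per cell cannot be told apart.

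**Figure D1:**
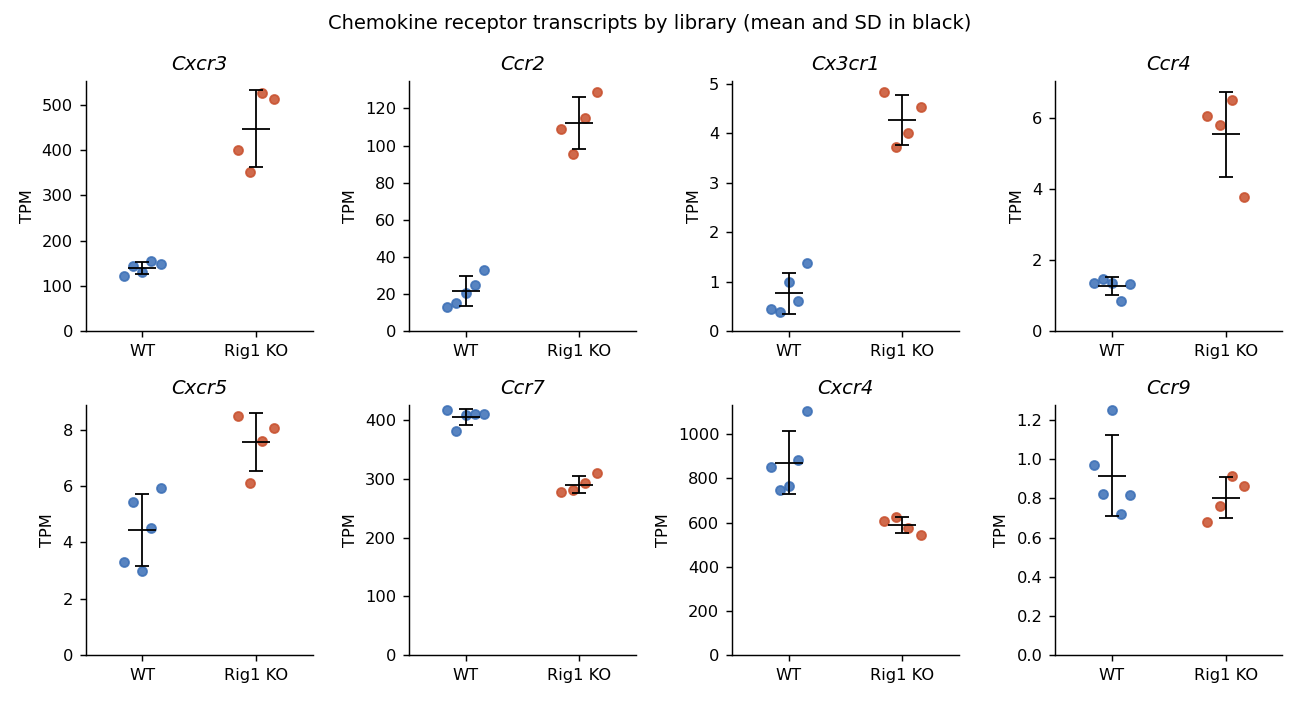
TPM of the 8 receptors in each library, WT (blue, 5 libraries) and Rig1 KO (orange, 4 libraries); points are libraries, and black lines give the mean and SD. The groups are apart in every panel except that of Ccr9.

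Receptors for inflamed tissue rose. Cxcr3 binds the interferon-induced chemokines Cxcl9 and Cxcl10 and leads effector T cells into inflamed tissue. It was at 123, 143, 131, 155 and 148 TPM in WT 1 to 5 and at 399, 352, 525 and 512 in Rig1 KO 1 to 4. The lowest KO library was above the highest WT library, and within the KO group libraries 3 and 4 were above libraries 1 and 2. The means of 139.9 ± 13.1 (SD, n = 5) and 447 ± 85 (SD, n = 4) TPM differed 3.20-fold, a log2 fold change of 1.65 (SE 0.121, 95% confidence interval 1.39 to 1.92, adjusted p = 2.72e-06, exact permutation p = 0.00794). Between 507 and 685 reads per WT library and 1430 to 1846 per KO library lay behind these values.

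Ccr2, the receptor for Ccl2 on monocytes and on effector and memory T cells, had the largest change of the 7 on the log2(TPM + 1) scale; in the ratio of means and on recovered reads Cx3cr1 was above it. Its TPM was 13.2, 15, 20.8, 25.1 and 33.1 in WT 1 to 5 and 109, 95.7, 115 and 129 in Rig1 KO 1 to 4. The WT libraries spread widely among themselves, yet the highest of them stayed far below the lowest KO library. The means were 21.4 ± 8.07 (SD, n = 5) and 112 ± 13.9 (SD, n = 4) TPM, a ratio of 5.23 and a log2 fold change of 2.40 (SE 0.226, 95% confidence interval 1.90 to 2.90, adjusted p = 1.71e-05, exact permutation p = 0.00794). Of 12 monocyte and macrophage markers, 2 rose and none fell, against 33.5% and 12.2% of all genes. They summed to 698, 849.8, 1318, 1350.4 and 1535 TPM in WT 1 to 5 and to 1407, 1599, 1559 and 1396 in Rig1 KO 1 to 4. Within WT the order of Ccr2 over the libraries was the order of these sums. Within Rig1 KO it was not: library 2 had the highest sum and the lowest Ccr2, and library 4 the lowest sum and the highest Ccr2. Between the groups the sums overlapped. They hold markers of macrophages as well as monocytes, so they do not measure the level of monocytes alone. All 7 basophil and mast cell markers rose, against 33.5% of all genes. Their sums were 26.7, 15.1, 38.9, 58.7 and 47.9 TPM in WT 1 to 5 and 222, 424, 234 and 238 in Rig1 KO 1 to 4. In WT, libraries 3 to 5 had higher sums and higher Ccr2 than libraries 1 and 2. In Rig1 KO, library 2 had the highest sum and the lowest Ccr2. The part of these cells in the Ccr2 result was not tested.

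Cx3cr1, the receptor for fractalkine, marks cytotoxic effector CD8+ T cells and is also made by monocytes and NK cells. Its TPM was 0.445, 0.391, 1.00, 0.618 and 1.37 in WT 1 to 5 and 4.83, 3.72, 4.0 and 4.53 in Rig1 KO 1 to 4, with no overlap. The means were 0.765 ± 0.414 (SD, n = 5) and 4.27 ± 0.502 (SD, n = 4) TPM, a ratio of 5.58. On the log2(TPM + 1) scale, which understates the change of a gene with low TPM, the log2 fold change was 1.60 (SE 0.163, 95% confidence interval 1.24 to 1.96, adjusted p = 2.76e-05, exact permutation p = 0.00794). From whole reads recovered from the TPM values, 96 to 322 per WT library and 864 to 1301 per KO library, limma with voom gave 2.57 (SE 0.238, adjusted p = 2.31e-06). The low TPM goes with a long divisor: the lengths behind the deposited values equal whole gene spans, introns included, and for Cx3cr1 this is 168264 bases against 4505 bases of exon. The annotated span of Cx3cr1 holds 9 other genes, 5 of them protein-coding, and of these Wdr48 fell (log2 fold change -1.30, SE 0.0981, adjusted p = 3.24e-06); the sources used here do not say how reads over overlapping genes were assigned.

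The NK cell markers moved with Cx3cr1. Of 10 NK cell markers, 8 rose, against 33.5% of all genes, and 2, Tyrobp and Klra4, did not pass. The sums of the 10 markers were 68.7, 79.9, 159.5, 157 and 253 TPM in WT 1 to 5 against 515, 459, 389 and 413 in Rig1 KO 1 to 4. With the mean of these markers in the fit, the log2 fold change was 0.92 for Cx3cr1 and 1.21 for Ccr2, both still past the test, and 758 of all genes were higher and 692 lower in that fit. Because the marker sums do not overlap between the groups, the level of these markers and genotype cannot be told apart in this comparison. Whether the marker transcripts came from NK cells or from the CD8+ T cells was not tested.

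**Figure D2:**
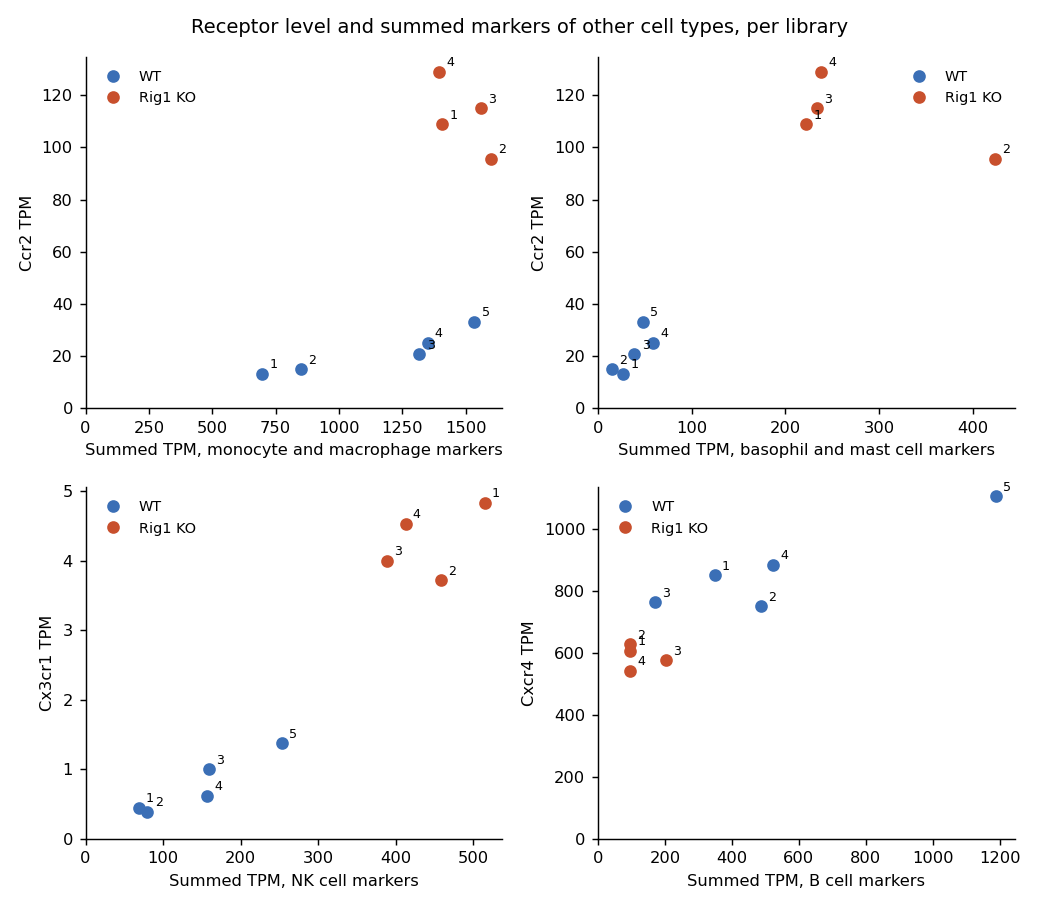
TPM of Ccr2, Cx3cr1 and Cxcr4 (vertical axes) against the summed TPM of markers of other cell types (horizontal axes) in the 5 WT (blue) and 4 Rig1 KO (orange) libraries, numbered by replicate. The monocyte and macrophage sums of the groups overlap, and the NK sums do not.

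Ccr4, the receptor for Ccl17 and Ccl22, is found on skin-homing, type 2 helper and regulatory T cells, and on part of the memory CD8+ T cells. It was at 1.36, 1.46, 1.37, 0.848 and 1.32 TPM in WT 1 to 5 and at 6.07, 5.81, 6.50 and 3.78 in Rig1 KO 1 to 4. Rig1 KO 4 was the lowest of its group and still above every WT library. The means of 1.27 ± 0.241 (SD, n = 5) and 5.54 ± 1.21 (SD, n = 4) TPM differed 4.36-fold, and the log2 fold change was 1.51 (SE 0.144, 95% confidence interval 1.19 to 1.83, adjusted p = 1.86e-05, exact permutation p = 0.00794). This value rests on few reads, 20 to 31 per WT library and 72 to 142 per KO library, and with voom on those reads it was 2.05 (SE 0.256, adjusted p = 3.25e-05). Of 3 CD4 T cell markers tested, none rose and Cd40lg fell (6.53 ± 1.68 to 3.74 ± 1.23 TPM, SD, n = 5 and 4, adjusted p = 0.0132). Over all genes 33.5% rose and 12.2% fell. The sums of these markers were 19.5 to 66.0 TPM in WT and 20.3 to 23.4 in Rig1 KO. Foxp3, the marker of regulatory T cells among the 4 listed, was not analysed here. The part of CD4 and regulatory T cells in the Ccr4 result was not tested.

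Cxcr5, which takes cells to B cell follicles through Cxcl13, rose least of the 5. It was at 3.32, 5.42, 2.97, 4.52 and 5.93 TPM in WT 1 to 5 and at 8.49, 6.10, 7.60 and 8.08 in Rig1 KO 1 to 4. The highest WT and the lowest KO library lay side by side, at 5.93 and 6.10. The means were 4.43 ± 1.28 (SD, n = 5) and 7.57 ± 1.04 (SD, n = 4) TPM, a ratio of 1.71 and a log2 fold change of 0.68 (SE 0.170, 95% confidence interval 0.31 to 1.06, adjusted p = 0.00772, exact permutation p = 0.0159). Of 9 B cell markers tested, 8 fell, against 12.2% of all genes, and none rose, opposite to Cxcr5. Their sums were 169 to 1189 TPM in WT and 95 to 203 in Rig1 KO. With the group means taken out, however, Cxcr5 went with the B cell marker mean (Pearson r = 0.727, Spearman rho = 0.600, 9 libraries). This was not particular to Cxcr5: Cxcr4 (0.638 and 0.350), Cxcr3 (0.520 and 0.567) and Ccr2 (0.483 and 0.567) did so too. The other receptors gave a Pearson r of 0.175 or less. With B cell marker level in the fit the log2 fold change of Cxcr5 was 1.19 (adjusted p = 0.00409). The part of B cells in the Cxcr5 result was not tested. Adding NK cell marker level to the fit ended the call (log2 fold change 0.33, adjusted p = 0.572). The span of Cxcr5 overlaps Bcl9l, which did not pass the test (log2 fold change -0.07, SE 0.0583, adjusted p = 0.383).

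Both abundant receptors of resting lymphocytes fell. Ccr7 binds Ccl19 and Ccl21 and brings naive and central memory T cells into lymph nodes. It was at 417, 382, 409, 410.0 and 409.9 TPM in WT 1 to 5 and at 277, 281, 293 and 310.3 in Rig1 KO 1 to 4. The libraries within each group lay close together, and the groups were well apart. The means were 406 ± 13.7 (SD, n = 5) and 290.4 ± 14.8 (SD, n = 4) TPM, 1.40-fold higher in WT, with a log2 fold change of -0.48 (SE 0.0504, 95% confidence interval -0.59 to -0.37, adjusted p = 3.48e-05, exact permutation p = 0.00794). At 6055 to 7207 reads per WT library and 4089 to 4834 per KO library it was among the most deeply read of the receptors.

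Cxcr4, the receptor for Cxcl12, holds cells in bone marrow and is made by most leukocytes. It was at 851, 749.9, 764, 885 and 1106 TPM in WT 1 to 5 and at 607, 627, 576 and 542 in Rig1 KO 1 to 4. WT 5 stood above its group, and the lowest WT library was above the highest KO library. The means of 871 ± 143 (SD, n = 5) and 588 ± 37.4 (SD, n = 4) TPM were 1.48-fold apart, with a log2 fold change of -0.55 (SE 0.106, 95% confidence interval -0.79 to -0.32, adjusted p = 0.00170, exact permutation p = 0.00794). WT 5 was also the library with the highest sum of B cell markers (1189 TPM). Adding B cell marker level to the fit gave Cxcr4 a log2 fold change of -0.27 and ended its call (adjusted p = 0.189), while Ccr7 remained lower. Without WT 4 and WT 5, the libraries with the highest B cell sums, the log2 fold change of Cxcr4 was -0.42 and still past the test.

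Ccr9, the receptor for Ccl25 that leads T cells to the small intestine, was low in both groups. Its TPM was 0.969, 0.823, 1.25, 0.719 and 0.817 in WT 1 to 5 and 0.678, 0.763, 0.912 and 0.862 in Rig1 KO 1 to 4. The groups overlapped, with means of 0.916 ± 0.207 (SD, n = 5) and 0.803 ± 0.104 (SD, n = 4) TPM (exact permutation p = 0.397). On recovered reads, 121 to 199 per WT library and 115 to 124 per KO library, voom gave a log2 fold change of -0.24 with a 95% confidence interval of -0.61 to 0.12 (adjusted p = 0.260), so no difference was found and a fall of up to 0.61 lies within the interval. Its span of 105892 bases, the divisor behind its TPM, is 10.32 times its exon length and overlaps 6 other annotated genes. Scaled by exon length, Ccr9 passed the filter and gave a log2 fold change of -0.16 (limma, adjusted p = 0.403).

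**Figure D3:**
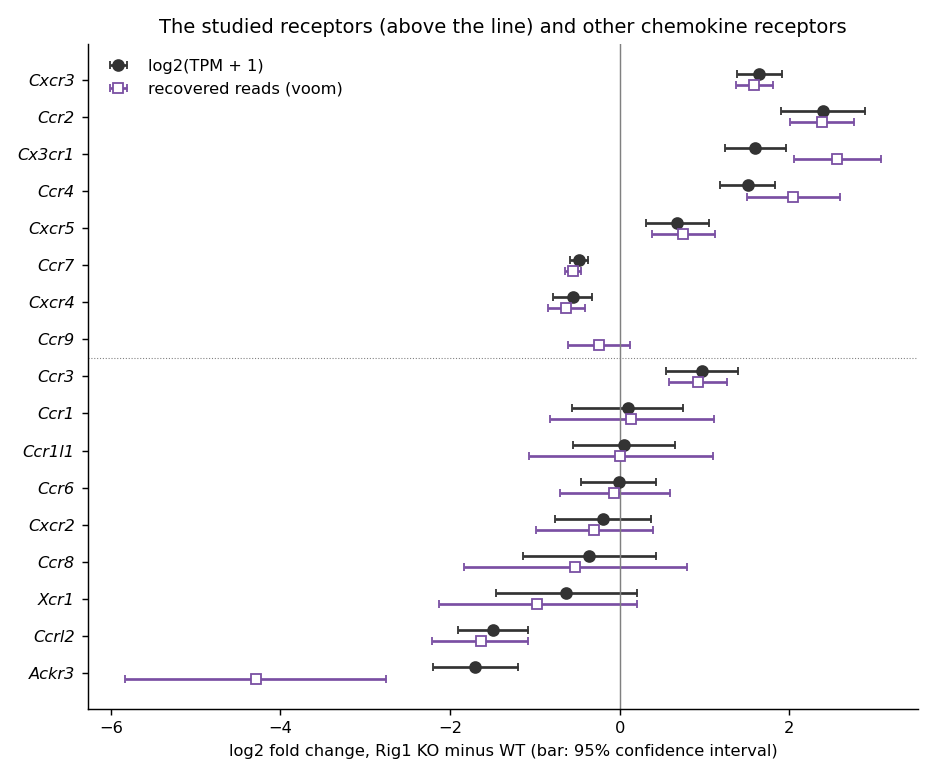
Log2 fold change, Rig1 KO minus WT, with 95% confidence intervals, for the studied receptors above the dotted line and for 9 other chemokine receptors below it. Black circles are fits on log2(TPM + 1), purple squares fits on recovered reads; the scales part most for Cx3cr1 (1.60 and 2.57) and Ackr3 (-1.70 and -4.29).

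Levels of different receptors cannot be read from the deposited TPM, since the divisors are gene spans that exceed the exon length between 1.58-fold (Cxcr3) and 37.35-fold (Cx3cr1). They were therefore recomputed from the recovered reads per exon length, scaled to the same total of 1000000 per library. It is not known here whether reads over introns were counted. If they were, genes with long introns come out too high on this scale. Exon lengths are from GENCODE M21, on an older build, and the spans of Cx3cr1, Ccr9 and Cxcr5 overlap other genes. The order of the receptors below therefore holds for this scale only. On this exon-scaled TPM, Ccr7 led in WT at 823 ± 21.7 (SD, n = 5), followed by Cxcr4 at 727 ± 112, Cxcr3 at 81.5 ± 7.32, Cxcr5 at 24.6 ± 7.08, Ccr2 at 13.5 ± 4.95, Cx3cr1 at 10.5 ± 5.59, Ccr9 at 3.49 ± 0.795 and Ccr4 at 2.21 ± 0.434. The ranges of neighbours overlapped for Ccr7 and Cxcr4, for Cxcr5 and Ccr2, and for Ccr2 and Cx3cr1. In Rig1 KO the order was Ccr7 at 574 ± 21.6 (SD, n = 4), Cxcr4 at 479 ± 40.6, Cxcr3 at 253 ± 42.5, Ccr2 at 69.2 ± 7.32, Cx3cr1 at 57.3 ± 6.72, Cxcr5 at 40.9 ± 5.33, Ccr4 at 9.41 ± 2.08 and Ccr9 at 2.98 ± 0.330. Only the ranges of Ccr2 and Cx3cr1 overlapped there, with Ccr2 the higher in 4 of 4 libraries. On this scale Ccr2 and Cx3cr1 stood above Cxcr5 in Rig1 KO and below it in WT in the means. Likewise Ccr4 stood above Ccr9 in Rig1 KO and below it in WT. These changes of order depend on the divisor. In the deposited TPM, Ccr2 was above Cxcr5, Cx3cr1 below Cxcr5 and Ccr4 above Ccr9 in the means of both groups.

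The exon-scaled levels of the 8 receptors summed to 1563 to 1893 in WT and 1460.1 to 1517 in Rig1 KO. Ccr7 and Cxcr4 made up 43.3% to 52.1% and 40.0% to 48.1% of that sum in WT, and 37.6% to 39.9% and 28.6% to 35.9% in Rig1 KO. Cxcr3 went from 4.29% to 5.44% of the sum in WT to between 14.1% and 19.6% in Rig1 KO. Ccr2 went from at most 1.09% to at least 4.15%, and Cx3cr1 from at most 0.982% to at least 3.51%. On this scale the receptors that fell were the most abundant of the 8 in all 9 libraries. These shares carry the same limits as the exon-scaled levels.

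**Figure D4:**
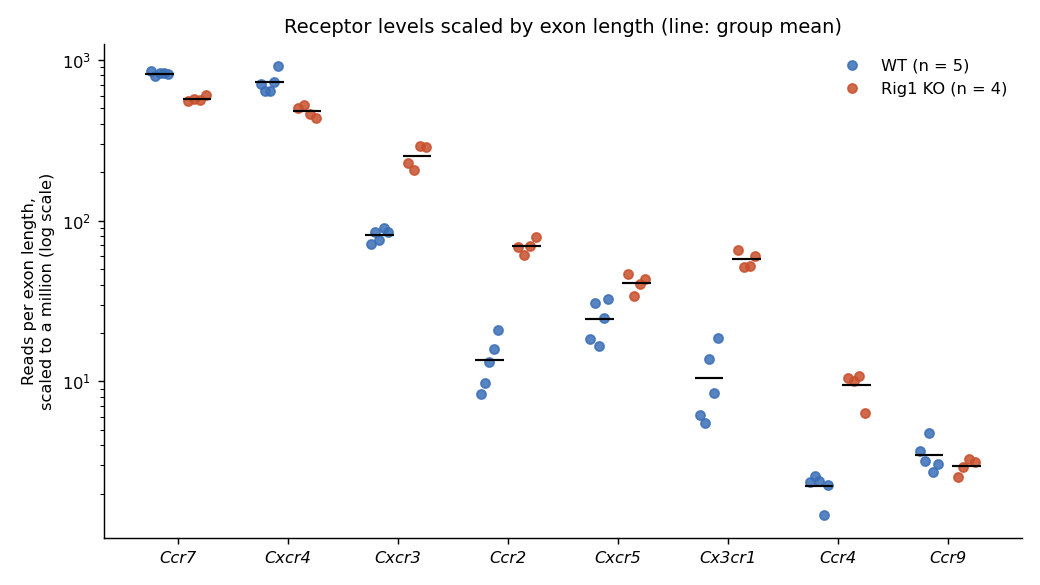
Level of each receptor per exon length, scaled to a total of 1000000 (log axis), in 5 WT (blue) and 4 Rig1 KO (orange) libraries; points are libraries and lines are group means. On this scale Ccr7 and Cxcr4 are at the top in both groups, while Ccr2 goes from 13.5 to 69.2 and Cx3cr1 from 10.5 to 57.3 in the mean. Levels of genes with long introns may be too high.

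Several of the receptors lie together on mouse chromosome 9, where Ccr9, Cxcr6 and Ccr2 are in 1 cluster with other receptor genes. In annotated order, the 8 protein-coding genes from Ccr9 to Ccr2 are Ccr9, Fyco1, Cxcr6, Xcr1, Ccr1, Ccr1l1, Ccr3 and Ccr2. Of these, 3 rose, 3 did not pass the test, Ccr9 was below the filter and Cxcr6 was not analysed here. Over all genes tested 33.5% rose and 12.2% fell, so a count this small does not set the cluster apart. Ccr3 and Ccr2, next to each other, rose by 0.97 (SE 0.191) and 2.40 (SE 0.226) on the log2 scale. Fyco1, an adaptor for the transport of autophagosomes, rose by 0.46 (adjusted p = 0.00617). Xcr1 (-0.63, adjusted p = 0.200), Ccr1 (0.10, adjusted p = 0.812) and Ccr1l1 (0.05, adjusted p = 0.899) gave no call. Receptors of this cluster are related in sequence, so reads that match more than 1 of them make each value uncertain where counting could split them.

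**Figure D5:**
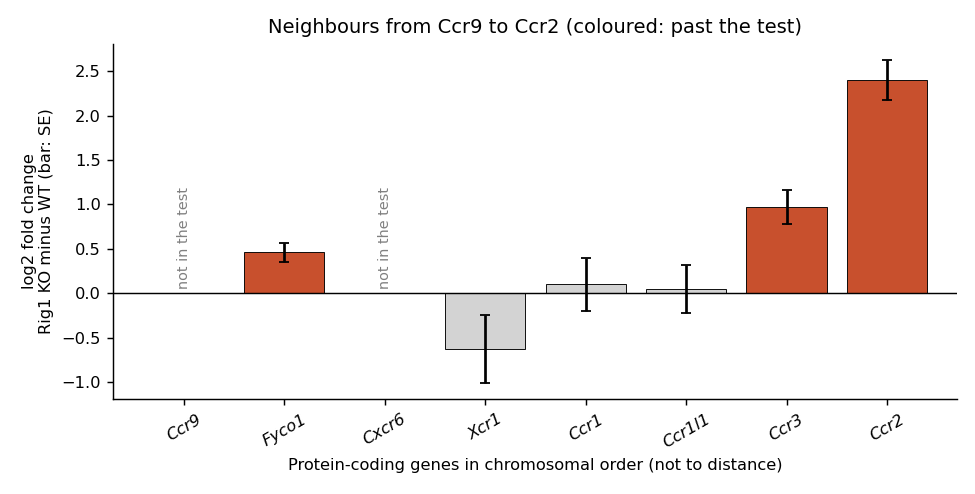
Log2 fold change, Rig1 KO minus WT, with its SE for the 8 protein-coding genes from Ccr9 to Ccr2 in chromosomal order, not to distance; coloured bars passed the test. Fyco1, Ccr3 and Ccr2 rose (0.46, 0.97 and 2.40), where 33.5% of all genes tested rose.

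Among 8 further chemokine receptors tested, 1 rose, 1 fell and 6 did not pass, where 33.5% of all genes rose and 12.2% fell. The median log2 fold change of these receptors was -0.10. Ccr3, the eotaxin receptor of eosinophils and basophils, went from 26.9 ± 8.09 (SD, n = 5) to 52.2 ± 6.99 (SD, n = 4) TPM (adjusted p = 0.00200); adding B cell or NK cell marker level to the fit ended its call (log2 fold change 0.88 with adjusted p = 0.0732, and 0.38 with adjusted p = 0.518). Ccrl2, which binds the chemoattractant chemerin and does not itself signal in the usual way, fell from 32.4 ± 10 to 10.6 ± 1.58 TPM (SD, n = 5 and 4, log2 fold change -1.49, adjusted p = 1.23e-04). Ackr3, a scavenger of Cxcl12, the Cxcr4 ligand, was the only one of the atypical receptors past the filter and fell: it had 30 to 99 reads per WT library and 1 to 4 per KO library, or 2.84 ± 1.35 and 0.127 ± 0.0805 TPM (SD, n = 5 and 4, adjusted p = 1.76e-04).

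Ligands of the receptors were low in these libraries. Of 6 tested, 3 fell, against 12.2% of all genes, 3 did not pass (Ccl17, Ccl25 and Cxcl9), and 5 more were below the filter. The count that fell was 1 without Rig1 KO 1, 1 without Rig1 KO 4, 1 without WT 4 and WT 5, 1 with NK cell marker level in the fit, 1 with no filter on low genes, 0 with B cell marker level in the fit and 0 when a mean TPM of 5 was required, where fewer genes were tested. Cxcl12, made by stromal cells, fell from 4.43 ± 0.886 to 2.16 ± 0.447 TPM (SD, n = 5 and 4, log2 fold change -0.78, adjusted p = 0.00142), in the same direction as its receptors Cxcr4 and Ackr3. Cxcl13, the follicular ligand of Cxcr5, fell from 2.92 ± 1.63 to 1.00 ± 0.409 TPM (SD, n = 5 and 4, adjusted p = 0.0217), opposite to Cxcr5. Cxcl16, the Cxcr6 ligand made by myeloid cells, fell from 6.19 ± 3.39 to 2.57 ± 1.16 TPM with overlapping groups (SD, n = 5 and 4, adjusted p = 0.0446).

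Downstream of the receptors, 12 of 24 signalling genes tested rose and 1 fell, against 33.5% and 12.2% of all genes. Their median log2 fold change was 0.18 against 0.13 over all genes. After median ratio scaling the signalling counts were 6 higher and 2 lower, and 7 rose with B cell and 1 with NK cell marker level in the fit. Over all 10540 genes tested, 2493, 2267 and 758 were higher in these fits. Plcb2, a phospholipase activated by G protein beta-gamma subunits, went from 111 ± 4.40 to 141 ± 8.16 TPM (SD, n = 5 and 4, adjusted p = 5.27e-04). Pik3r5, the regulatory subunit of PI3K-gamma, went from 61.2 ± 2.14 to 74.7 ± 1.86 TPM (adjusted p = 6.92e-04), and Rassf5, a Rap1 effector that activates the integrin LFA-1, from 5.17 ± 0.377 to 7.65 ± 0.693 TPM (adjusted p = 7.78e-04). Rap1b, the Rap1 GTPase, fell from 236 ± 7.12 to 198 ± 19.0 TPM (log2 fold change -0.26, adjusted p = 0.00742).

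Of the genes that end receptor signalling, 5 of 13 tested rose and 4 fell, against 33.5% and 12.2% of all genes. Their median log2 fold change was 0.11. After median ratio scaling 3 were higher and 5 lower, and none rose with NK cell marker level in the fit. RGS proteins speed the shut-off of the G protein. Rgs2 fell from 450.0 ± 89.6 to 88.5 ± 5.92 TPM (SD, n = 5 and 4, log2 fold change -2.31, adjusted p = 2.88e-07). Rgs1, known to dampen chemokine responses in lymphocytes, fell from 165 ± 35.2 to 43.2 ± 5.07 TPM (log2 fold change -1.90, adjusted p = 3.03e-06), and Rgs16 from 8.21 ± 1.32 to 1.69 ± 0.305 TPM (log2 fold change -1.77, adjusted p = 1.76e-06). Rgs3 rose from 12.6 ± 1.05 to 20.8 ± 2.13 TPM (log2 fold change 0.69, adjusted p = 1.07e-04). The receptor kinase Grk6 and the arrestins Arrb1 and Arrb2, which uncouple receptors from G proteins, were higher by 0.24, 0.47 and 0.29 on the log2 scale.

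Other receptors that steer lymphocytes were mostly higher: 8 of 13 rose and 1 fell, against 33.5% and 12.2% of all genes. Their median log2 fold change was 0.37, and 2 rose with NK cell marker level in the fit. Selplg, the P-selectin ligand, rose from 303 ± 14.0 to 457 ± 20.7 TPM (SD, n = 5 and 4, adjusted p = 1.12e-05) and the integrin subunit Itgb1 from 51.9 ± 8.45 to 103 ± 15.4 TPM (adjusted p = 1.59e-04). S1pr4, a receptor for sphingosine 1-phosphate, rose from 484 ± 36.1 to 698 ± 63.2 TPM (adjusted p = 2.38e-04). P2ry10, a receptor for lysophospholipids, was the gene that fell, from 139.6 ± 15.7 to 63.7 ± 5.38 TPM (adjusted p = 3.84e-06).

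Among 14 transcription factors known to act on 1 or more of the receptors, 9 rose and 1 fell, against 33.5% and 12.2% of all genes. Their median log2 fold change was 0.29. After median ratio scaling 5 were higher and 2 lower, and 5 rose with B cell and 2 with NK cell marker level in the fit. Tbx21 (T-bet), which activates Cxcr3, was at 18.6, 21.3, 26.2, 20.9 and 26.6 TPM in WT 1 to 5 and at 58.7, 52.9, 54.5 and 62.7 in Rig1 KO 1 to 4 (log2 fold change 1.30, SE 0.105, adjusted p = 5.37e-06). Eomes, the related factor of memory and effector CD8+ T cells, went from 138 ± 14.7 (SD, n = 5) to 299 ± 18.2 (SD, n = 4) TPM (log2 fold change 1.12, adjusted p = 2.75e-06). Klf2, which keeps T cells in the resting, recirculating state, was at 1937 ± 154 (SD, n = 5) in WT and 989.6 ± 50.2 (SD, n = 4) TPM in Rig1 KO and was the factor that fell (log2 fold change -0.97, SE 0.0685, adjusted p = 2.15e-06). Prdm1 (Blimp-1), a factor of terminal effector cells, rose from 0.771 ± 0.148 to 1.84 ± 0.134 TPM (adjusted p = 3.05e-04).

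Genes with the pattern most like each receptor were sought among 8074 genes whose mean TPM reached 5, after taking each group's mean out of log2(TPM + 1), so that only the variation within groups counts. This is a description over 9 libraries that share those group means, and a search this wide finds a high value for every gene. Cx3cr1 went most closely with Klrg1 (Pearson r = 0.972, Spearman rho = 0.950), S1pr5 (0.963 and 0.917) and Ccl4 (0.947 and 0.867), all known from cytotoxic effector lymphocytes and NK cells. Cxcr3 went with Oasl2 (0.995 and 1.000), Arel1 (0.986 and 0.983) and Map4 (0.983 and 0.983), of which Oasl2 is an interferon-induced gene. Ccr2 went with Plekho2 (0.990 and 0.950), Cenpo (0.984 and 1.000) and Tmem221 (0.979 and 0.933). The highest Pearson values for the others were 0.972 for Ccr7 with Stau1, 0.978 for Cxcr4 with Tpgs1, 0.947 for Cxcr5 with Pex16, 0.872 for Ccr4 with Nat14 and 0.985 for Ccr9 with Ccsap.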

How the data were processed

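Per the submitters' processing notes, reads were processed with fastp and featureCounts on mm39 (GRCm39); versions, aligner, annotation and strand setting were not stated in them. The deposited files hold TPM computed by the authors for 18188 genes in each of 9 libraries, each summing to 1000000. The ratios of these values gave whole reads per gene for every listed gene with a value (relative tolerance 2e-12). They are the smallest whole numbers that fit, up to a divisor that each gene shares over its 9 libraries, so reads are lower bounds. The implied length was within 1% of the genomic span in GENCODE M21 for 99.2% of 9805 genes with more than 500 reads, and within 1% of the exon length for 1.37%.

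WT and Rig1 KO were compared with limma 3.58.1 (R 4.3.3, mean-variance trend) on log2(TPM + 1) for genes that reached a TPM of 1 in 4 or more libraries, checked on simulated data. Alternatives were other pseudocounts, filters and scalings, exon lengths, voom on recovered reads, marker covariates, a replicate block and leaving out libraries. The voom fit took genes past the TPM filter or with at least 10 recovered reads in 4 or more libraries. Besides the receptors, up to 4 genes of each list with the smallest p, genes of counts of 5 or fewer and the 3 most alike genes per receptor (predicted genes and antigen receptor segments left out) are named; Wdr48, Bcl9l, Fyco1 and the other cluster genes were named for their position. The receptors, the 7 gene lists beside them and the 9 marker lists were chosen with earlier results of these data known. A few listed genes are not reported here.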

Additional observations from a re-analysis of the deposited data

Results flagged for a closer look

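Of 22 groups of values checked for a library far from its group, 2 met the criterion, where chance alone meets it in about 1 group in 20. Ccr4 in WT 4 was at 0.848 TPM, against 1.32 to 1.46 in the other WT libraries; this gap is 0.780 of the range of the group. Ccr7 in WT 2 was at 382 TPM, against 409 to 417 in the other WT libraries, also with a gap of 0.780 of the range. Both libraries remained on the WT side of every Rig1 KO library.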

How the results depend on the processing

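Under 22 alternatives the 7 tested receptors kept their direction. Of 152 receptor values, 150 kept their side of the threshold, and 2 lost the call: Cxcr4 with B cell marker level in the fit (-0.27, adjusted p = 0.189) and Cxcr5 with NK cell marker level in it (0.33, adjusted p = 0.572). The count of receptors that fell was then 1 with the B cell covariate. The count of receptors that rose was 3 when a mean TPM of at least 5 was required, since Ccr4 and Cx3cr1 then left the genes tested. Over the alternatives the log2 fold change ran from 1.21 to 2.89 for Ccr2, 1.42 to 2.05 for Ccr4, -0.61 to -0.46 for Ccr7, 1.45 to 1.92 for Cxcr3, -0.93 to -0.27 for Cxcr4, 0.33 to 1.19 for Cxcr5 and 0.92 to 2.57 for Cx3cr1. Leaving out each library in turn gave 5 higher and 2 lower receptors each time. Over all genes 3526 were higher and 1291 lower, against 2493 and 2260 with median ratio scaling, 2552 and 2195 with quantile normalization, 3292 and 2194 with voom, 2267 and 609 with the B cell covariate and 758 and 692 with the NK cell covariate. Same-numbered libraries did not deviate together (r = 0.097, -0.060, -0.100 and -0.072 for numbers 1 to 4), so no pairing by number was seen, though such values cannot exclude one. With a replicate block 5 receptors were higher and 2 lower, with Ccr2 at 2.57, and 3600 genes were higher and 1182 lower. Depth limits Ccr4 most, at 20 to 142 reads per library.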
